A study of Mus musculus with 85 samples.

Results

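Mouse 2-cell embryos cultured without pyruvate were followed over 6 h, from 42 to 48 h after the hCG injection that times ovulation, in 9 of the 85 libraries analysed. The members are the 5 libraries titled as late 2-cell embryos without pyruvate (48 h) and the 4 titled as mid 2-cell embryos without pyruvate (42 h). All embryos were wild type, of the strain labelled B6C3F1/J. The medium was KSOM with its pyruvate (0.2 mM in the complete medium) left out, so that 5 mM lactate and 0.2 mM glucose stayed in both groups. Libraries were made by Smart-seq2, a method that starts cDNA from poly(A) tails and keeps full-length molecules. Set beside them were 2-cell embryos in the complete medium at 48 h (3 libraries), 42 h (4 libraries) and 34 h (3 libraries). Later groups shared the fit, and levels of some genes in them are given. These were pyruvate-free 2-cell embryos at 52 h (4 libraries) and 55 h (4 libraries). In the complete medium they were 2-cell embryos at 52 h (3 libraries) and early 4-cell embryos at 55 h (4 libraries). The number of embryos in a library, and whether libraries of a group came from separate cultures, were not stated, and p-values therefore reflect the spread between libraries alone, which may be technical.

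The 2-cell stage is when the mouse embryo takes over from the egg. RNA stored in the oocyte is deadenylated and degraded, and the embryonic genome is switched on in a small early wave and then a large one, which includes the brief burst of Zscan4, Tdpoz, Usp17l and other 2-cell genes. Early cleavage embryos use pyruvate and lactate, rather than glucose, as their main fuels, and mouse zygotes in culture depend on pyruvate for the first divisions. Lactate can itself be turned into pyruvate by lactate dehydrogenase.

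The files give CPM, counts per 1000000,, the share of a library's counts that a gene holds, with no correction for gene length. Levels are therefore compared between libraries and not between genes, and fewer transcripts per cell cannot be told apart from more of everything else. Depth, inferred from the size of the step that 1 read makes among low values, was about 14.9 to 25.0 M reads at 48 h and 17.0 to 23.8 M reads at 42 h. The 2-cell markers named for this check were present, with Zscan4d at 374 against 765 CPM (48 h first) and Obox6 at 283 against 28.0 CPM. Marker levels of other cells were low. The 14 cumulus and granulosa genes summed to 26.0 to 33.8 CPM at 48 h and 13.2 to 18.6 CPM at 42 h, and 4 of the 8 that were tested rose (2 without 48 h replicate 4, and 1 with either other scaling). Amh was listed at 0 at 42 h and averaged 0.0114 CPM at 48 h, while Amhr2 rose (6.15 ± 2.64 CPM at 48 h against 0.172 ± 0.0882 CPM at 42 h). In standard medium Amhr2 stood at 42.2 CPM at 48 h and 6.96 CPM at 42 h. Of 6 sperm markers 1 was tested (Prm2, 3.00 against 1.54 CPM), with a sum of 2.62 to 4.23 CPM at 48 h and 1.05 to 2.24 CPM at 42 h. Of the 3 blood markers in the table, 1 was tested (Hba-a1, 4.70 against 0.904 CPM), with a sum of 2.86 to 6.29 CPM at 48 h and 0.531 to 1.28 CPM at 42 h. Prm2 and Hba-a1 both rose, Hba-a1 also with the other scalings, whereas Prm2 passed with neither and lost its call without 42 h replicate 3. The part of other cells in the results was not tested. Several libraries stood apart. At 48 h replicate 1 was the highest of its group in 9 of the 10 largest rises and the lowest in 8 of the 10 largest falls, replicate 2 was the lowest in 9 of the rises, and replicate 3 the highest in 7 of the falls. At 42 h replicate 3 was the highest in 7 of the rises and the lowest in 7 of the falls. Without 48 h replicate 1, 10590 genes were called, of which 9944 were higher, and without 42 h replicate 3 10786 and 9996, against 11582 and 10848 with all 9 libraries.

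Between 42 and 48 h without pyruvate, RNA was spread over more genes. The number of genes above 1 CPM was 16256 ± 278 (SD, n = 5) at 48 h and 13150 ± 191 (SD, n = 4) at 42 h. The 100 highest genes held 35.9 ± 1.97% of all counts at 48 h and 48.6 ± 0.842% at 42 h. Mitochondrially encoded genes held 7.92 ± 0.679% at 48 h and 4.92 ± 0.459% at 42 h. For each of the 3 measures the groups did not overlap, and the exact two-sided permutation test gave p = 0.0159, also after Benjamini-Hochberg adjustment, the smallest value that 5 against 4 libraries allow. All 37 mitochondrially encoded genes rose in the deposited scale, with a median log2 change of 1.06, while 14 rose and 1 fell with median-ratio scaling and 20 rose and 0 fell with quantile scaling. The 37 include transfer RNA and ribosomal RNA genes, which a method that starts from poly(A) tails may measure poorly.

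By gene, 10848 of 20737 genes tested were higher at 48 h (52.3% of genes tested) and 734 were lower (3.54%), so that 55.9% were called (limma on log2(CPM + 1), Benjamini-Hochberg threshold 0.05). The median log2 change of all genes tested was 0.59, and it was 0.11 with median-ratio scaling and -0.04 with quantile scaling. These scalings align the bulk of the genes of each library. Of the genes called, 93.7% were higher in the deposited scale, 60.03% with median-ratio scaling (4615 higher and 3073 lower) and 50.6% with quantile scaling (3631 and 3546). Of the 10848 higher genes, 4614 were also called higher with median-ratio scaling and 3602 with quantile scaling, while 121 and 90 turned lower. Of the 734 lower genes, 734 and 673 were also lower. For this reason the counts of lists and families are given under all 3 scalings. Each is read against the shares of all genes under the same scaling, which are 52.3% higher and 3.54% lower as deposited, 22.8% and 15.2% with median-ratio scaling and 17.5% and 17.1% with quantile scaling. Of the higher genes, 5477 changed by at least 1 log2 unit and 1071 by at least 2, and of the lower genes 245 and 56. In the standard 34 h embryo the higher genes had a median of 2.32 CPM and the lower genes 86.7 CPM, against 1.63 CPM for all genes tested. Of the 100 genes with the highest level at 42 h, 67 fell and 14 rose, and of the 100 highest at 48 h, 47 fell and 20 rose. Both sets were chosen by levels that enter the comparison, and choosing by the 42 h level favours falls.

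The 10 largest rises and falls were taken among genes with a mean of at least 20 CPM in the higher group, no overlap between the groups and a name other than a gene model's. The rises were led by Cdk2ap1, which encodes a CDK2-binding protein and subunit of the NuRD chromatin remodeller (chromosome 5, 124345417 to 124363082, minus strand in GRCm38, the mm10 build, as are the positions below). Its levels were 155, 75.2, 75.5, 110.3 and 198 CPM in replicates 1 to 5 at 48 h, against 3.59, 2.77, 3.45 and 4.91 CPM in replicates 1 to 4 at 42 h. Every 48 h library stood above every 42 h library, and replicates 1 and 5 were the highest of the later group (log2 change 4.64 ± 0.23 (SE), adjusted p = 1.2e-17). Selenos, a selenoprotein of the pathway that clears misfolded proteins from the endoplasmic reticulum, had 205, 78.8, 94.1, 149 and 202 CPM in replicates 1 to 5 at 48 h, against 4.57, 4.23, 7.003 and 5.60 CPM in replicates 1 to 4 at 42 h (log2 change 4.45 ± 0.23 (SE), adjusted p = 6.2e-17). Replicates 2 and 3 were again the lowest at 48 h, and the groups were far apart. Trim43a, of a tripartite-motif gene family, had 219, 141, 141, 153 and 210.2 CPM in replicates 1 to 5 at 48 h, against 7.81, 8.36, 8.68 and 7.90 CPM in replicates 1 to 4 at 42 h (log2 change 4.22 ± 0.20 (SE), adjusted p = 6.9e-18). Its close relative Trim43b averaged 209 ± 55.6 CPM at 48 h against 10.03 ± 2.83 CPM at 42 h, and all 3 Trim43 genes rose under each scaling, though reads may be split between such similar copies. Also among the 10 largest were 2 genes of vitamin use, Slc19a3 (a thiamine transporter, 99.9 ± 28.8 CPM at 48 h against 4.41 ± 1.72 CPM at 42 h) and Pdxk (pyridoxal kinase, 88.2 ± 35.6 CPM at 48 h against 4.76 ± 2.80 CPM at 42 h). Timd2, a receptor for ferritin, averaged 212 ± 78.9 CPM at 48 h against 10.9 ± 3.27 CPM at 42 h, and Ctsc, a lysosomal protease, 76.4 ± 33.1 CPM at 48 h against 3.95 ± 4.19 CPM at 42 h. Rnf11, a RING finger protein of ubiquitin ligation, averaged 106 ± 41.8 CPM at 48 h against 3.94 ± 1.41 CPM at 42 h, and the homeobox gene Obox8 45.1 ± 26.3 CPM at 48 h against 1.52 ± 1.30 CPM at 42 h. The lack of overlap was part of the choice of these genes, and it held in 54.9% of all genes tested.

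Promoter windows of 4 named genes that rose are printed because each holds one of the motifs searched. They come from RefSeq (GRCm38.p6) and run 5′ to 3′ on the gene's strand, over 300 bases around the start site of the RefSeq transcript, with motif letters in capitals. For Cdk2ap1 that start lies inside the gene as GENCODE draws it, since another transcript starts further upstream. They lie at chr5:124354579-124354878 (minus strand) for Cdk2ap1, chr7:66079399-66079698 (plus strand) for Selenos, chr9:88580641-88580940 (plus strand) for Trim43a and chr6:125131633-125131932 (plus strand) for Nop2, which is described with the nucleolar genes below.
Cdk2ap1: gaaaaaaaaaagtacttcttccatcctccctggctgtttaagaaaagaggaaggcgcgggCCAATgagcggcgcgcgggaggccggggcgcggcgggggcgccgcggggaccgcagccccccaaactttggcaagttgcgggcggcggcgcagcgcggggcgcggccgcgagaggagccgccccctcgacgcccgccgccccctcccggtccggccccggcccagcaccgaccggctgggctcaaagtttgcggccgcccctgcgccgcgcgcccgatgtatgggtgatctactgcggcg
Selenos: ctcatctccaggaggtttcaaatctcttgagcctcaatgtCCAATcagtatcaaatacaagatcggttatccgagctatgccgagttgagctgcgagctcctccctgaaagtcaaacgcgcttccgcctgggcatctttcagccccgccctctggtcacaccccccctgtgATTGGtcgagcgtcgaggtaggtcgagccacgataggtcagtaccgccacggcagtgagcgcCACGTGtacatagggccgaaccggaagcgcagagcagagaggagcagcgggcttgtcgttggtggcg
Trim43a: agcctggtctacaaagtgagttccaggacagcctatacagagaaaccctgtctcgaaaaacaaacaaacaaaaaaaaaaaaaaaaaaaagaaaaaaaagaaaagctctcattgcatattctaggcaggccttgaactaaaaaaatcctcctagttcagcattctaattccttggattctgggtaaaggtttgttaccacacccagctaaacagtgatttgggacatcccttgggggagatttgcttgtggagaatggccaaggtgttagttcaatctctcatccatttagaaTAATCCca
Nop2: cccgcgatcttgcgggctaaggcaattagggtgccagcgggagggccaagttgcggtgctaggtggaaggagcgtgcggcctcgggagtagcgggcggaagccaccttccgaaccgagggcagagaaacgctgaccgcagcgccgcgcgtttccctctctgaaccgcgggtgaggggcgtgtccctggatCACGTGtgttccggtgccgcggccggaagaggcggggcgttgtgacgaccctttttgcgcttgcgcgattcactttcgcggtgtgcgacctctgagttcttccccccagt
In Cdk2ap1 the capitals mark CCAAT, the letters bound by NFY, starting 190 bases before the start site. Selenos holds CCAAT 210 bases before it, the same motif read on the other strand (ATTGG) 79 bases before it, and CACGTG, the E-box that MYC and other factors bind, 17 bases before it. Trim43a holds TAATCC, the letters bound by OBOX and OTX type homeobox proteins, 42 bases after its start site, and Nop2 holds CACGTG 60 bases before its own. Of the 10 largest rises 7 had a window in the table, and of these 2 held CCAAT, 2 CACGTG, 1 TAATCC and 0 the DUX motif.

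Over the genes that had a window, the same letters were about as frequent among genes that rose as among all genes tested. Windows covered 12832 of the 20737 genes tested, 7180 of the 10848 that rose and 346 of the 734 that fell. The remaining genes were not searched, so the shares below hold only for genes with a window. Both strands were searched. TAATCC and CCAAT can share letters where they meet, but no matches overlap in the 4 windows printed. CCAAT was found in 38.6% of 9070 windows of genes that rose, 44.6% of 428 windows of genes that fell and 38.2% of 16180 windows of all genes tested. CACGTG was found in 9.75% of the windows of genes that rose, 8.41% of those of genes that fell and 9.36% of all. TAATCC was found in 6.16%, 5.84% and 6.25% of the same sets. The DUX letters were in 1 window of genes that rose and 2 of all genes tested. Among the 846 windows of genes that rose by at least 2 log2 units, CACGTG was in 11.9% and TAATCC in 8.16%. These are descriptions with no test, and a match is not a site.

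**Figure D1:**
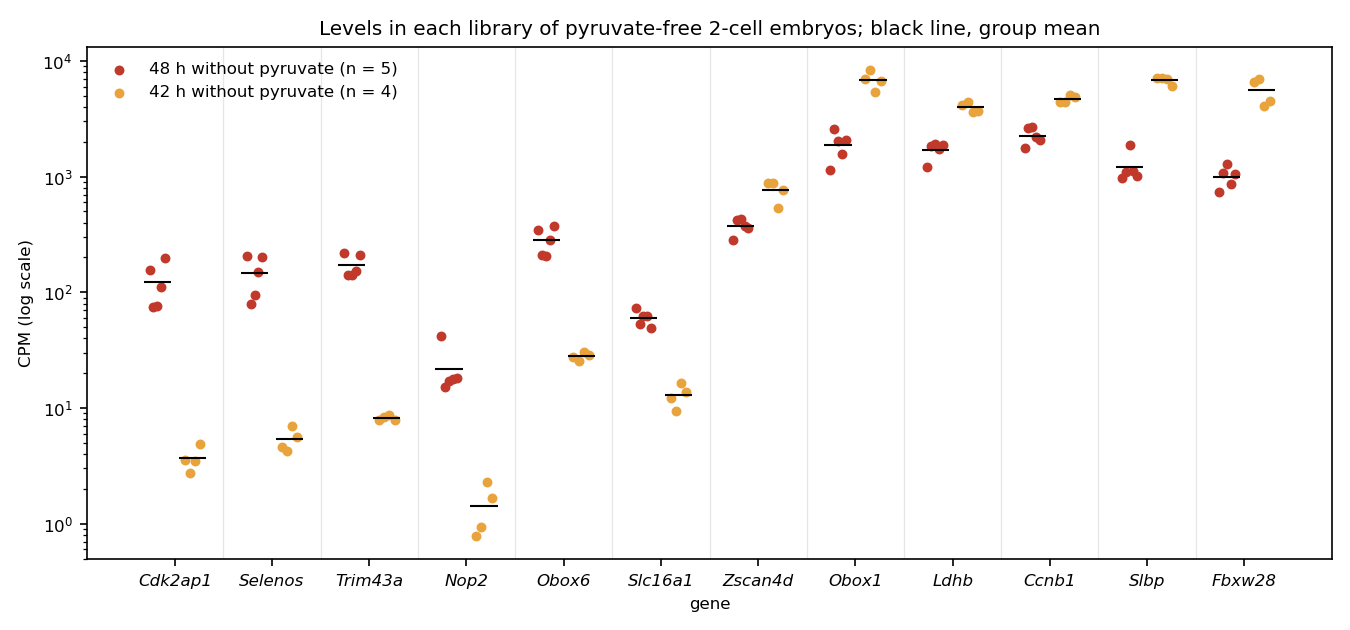
Levels (CPM, log scale) of 12 genes in each pyruvate-free library, with the 5 libraries at 48 h (red) left of the 4 at 42 h (orange) and a black line at each group mean. For each of the 12 genes the groups do not overlap; in Nop2 the 48 h library at 41.5 CPM is replicate 1.

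The largest falls included Slbp, Fbxw genes and Oas1e. Slbp, which binds the stem-loop of histone mRNAs and is stockpiled by the oocyte, had 977, 1089, 1871, 1119 and 1019.5 CPM in replicates 1 to 5 at 48 h, against 7119, 7047, 6980.2 and 6044 CPM in replicates 1 to 4 at 42 h. All 48 h libraries lay below all 42 h libraries, with replicate 3 the highest of the later group (log2 change -2.52 ± 0.19 (SE), adjusted p = 1.7e-13). Of the 10 largest falls, 6 were Fbxw genes, F-box and WD40 proteins from an oocyte-expressed cluster on chromosome 9 (109139447 to 109790670). Fbxw28 (chromosome 9, 109322886 to 109339659, minus strand) had 739, 1065, 1287, 869 and 1048 CPM in replicates 1 to 5 at 48 h, against 6584, 6989, 4107 and 4534 CPM in replicates 1 to 4 at 42 h (log2 change -2.46 ± 0.21 (SE), adjusted p = 3.7e-12). Fbxw22 had the largest fall of all named genes (177 ± 35.5 CPM at 48 h against 1394 ± 409 CPM at 42 h, log2 change -2.95). All 15 genes of the cluster fell under each scaling. They had log2 changes between -2.95 and -1.40, though their sequences are alike and reads may be shared. Of 7 Oas1 genes tested, 5 fell (6 with either other scaling), including Oas1e (397 ± 91.3 CPM at 48 h against 1964 ± 168 CPM at 42 h), a relative of the oligoadenylate synthetases. Slc24a5, a cation exchanger, fell as well (16.2 ± 6.005 CPM at 48 h against 102 ± 31.6 CPM at 42 h), as did C87977 (472 ± 93.8 CPM at 48 h against 2662 ± 378 CPM at 42 h).

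As a list, however, maternal transcripts were divided. Of the 48 listed, 7 of 48 tested rose, 20 fell and 21 did not pass. Under median-ratio scaling 1 rose and 35 fell, and under quantile scaling 2 and 18. The median log2 change was -0.13, against 0.59 over all genes. The 5 with the largest falls were Fbxw28, Oas1e, Oas1d (572 against 2299.7 CPM, 48 h first here and below), Oog4 (319 against 1274 CPM) and Ooep, a subunit of the subcortical maternal complex (128 against 471 CPM). H1foo, the oocyte linker histone, fell (766 against 2501 CPM), and so did Bmp15, an oocyte growth factor (2703 against 4378 CPM). Other maternal transcripts stayed abundant and did not pass, among them Omt2b (10865 against 11292 CPM), Wee2, an oocyte kinase that holds CDK1 inactive (2076 against 1870.2 CPM), and Gdf9 (440.0 against 385 CPM). The 7 that rose were egg coat genes and others: Zp1, Zp2, Zp3, Khdc3, Ybx2, Sohlh1 and Mos. Zp3 averaged 26.6 ± 2.53 CPM at 48 h against 12.3 ± 0.781 CPM at 42 h (log2 change 1.05, 0.27 with median-ratio and 0.14 with quantile scaling, where it did not pass). Summed over the list, maternal transcripts held 74053 to 90411 CPM at 48 h and 131840.0 to 155780.0 CPM at 42 h.

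The machinery that removes maternal mRNA moved unevenly. Of its 29 members tested, 19 rose, 4 fell and 6 did not pass. Under median-ratio scaling 8 rose and 8 fell, and under quantile scaling 8 and 6. Ythdf2, a reader of m6A that speeds mRNA decay, had 104 ± 18.7 CPM at 48 h against 26.5 ± 6.24 CPM at 42 h (log2 change 1.94 ± 0.19 (SE), adjusted p = 8.2e-11), and Cnot10, a subunit of the CCR4-NOT deadenylase, had 13.7 ± 3.66 CPM at 48 h against 2.87 ± 0.684 CPM at 42 h. Btg4, the adaptor that recruits CCR4-NOT during egg-to-embryo transition, fell (9569.9 against 13810.5 CPM). Pabpn1l and Cnot3 also fell, Pabpn1l with 18.4 ± 5.03 CPM at 48 h against 31.8 ± 4.88 CPM at 42 h and Cnot3 with 12.1 ± 0.65 CPM at 48 h against 26.9 ± 20.6 CPM at 42 h. The Cnot3 call rests on 42 h replicate 3 (57.5 CPM), and without it the adjusted p was 0.10. Pabpn1l lost its call without 48 h replicate 2 or 5 or 42 h replicate 1 (adjusted p 0.050 to 0.071) or with a pseudocount of 0.1 (0.11), and without any one of those 3 libraries 2 members of the list fell.

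Genes of the 2-cell burst did not move as one. Of the 28 listed, 15 of 28 tested rose, 5 fell and 8 did not pass. Under median-ratio scaling 14 rose and 10 fell, and under quantile scaling 13 and 7. The median log2 change was 1.27. The Zscan4 genes were abundant at 42 h. Zscan4d, which encodes a SCAN and zinc finger protein of the burst, had 282, 424, 431, 376 and 358 CPM in replicates 1 to 5 at 48 h, against 882, 882, 536 and 761 CPM in replicates 1 to 4 at 42 h. The groups did not overlap, and 42 h replicate 3 was the lowest of its group (log2 change -1.02 ± 0.22 (SE), adjusted p = 0.00023). Of the 6 Zscan4 genes 4 fell in the deposited scale, 6 with median-ratio and 5 with quantile scaling, and 0 rose under any of them. Zscan4f had 1104 ± 231 CPM at 48 h against 1190.3 ± 213 CPM at 42 h and did not pass. With median-ratio scaling Zscan4f passed as lower (log2 change -0.95), and with quantile scaling it had 0.24 and did not pass. Zscan4c lost its call without 48 h replicate 1 or without 42 h replicate 1 or 2 (adjusted p 0.052 to 0.053). Duxf3, a copy of the gene for the DUX factor that starts the burst, was low and fell (5.36 ± 2.84 CPM at 48 h against 11.3 ± 3.28 CPM at 42 h, log2 change -1.03 ± 0.34 (SE), adjusted p = 0.011), with an adjusted p of 0.052 without 42 h replicate 3 and 0.081 with a pseudocount of 0.1 as the highest of its alternatives.

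In contrast, the Tdpoz genes, Zfp54 and several others of the burst rose. Tdpoz1, of a family of TRAF and BTB domain proteins, had 164, 107, 92.1, 121 and 142 CPM in replicates 1 to 5 at 48 h, against 13.4, 9.39, 11.6 and 15.0 CPM in replicates 1 to 4 at 42 h (log2 change 3.23 ± 0.22 (SE), adjusted p = 3.3e-14). Zfp54, a zinc finger gene, had 159, 184, 172, 169 and 198 CPM in replicates 1 to 5 at 48 h, against 17.4, 24.7, 11.3 and 25.5 CPM in replicates 1 to 4 at 42 h (log2 change 3.16 ± 0.20 (SE), adjusted p = 4.2e-15). Replicates lay close together in both genes, and no library of one age reached the range of the other. All 5 Tdpoz genes rose, though Tdpoz3 did not pass with quantile scaling (adjusted p = 0.063). Others that rose were Zfp352 (449.8 against 96.9 CPM), Dppa4, a chromatin-associated activator of the burst (63.4 against 5.97 CPM), Tmem92 (309 against 101 CPM) and Sp110 (513 against 139 CPM). Of the 5 Usp17l genes tested, which encode deubiquitinases in near-identical copies, 3 rose and 0 fell, while 2 rose and 1 fell with either other scaling.

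The Obox homeobox genes moved both ways. Obox1, Obox2, Obox5 and Obox7 fell, and Obox3, Obox6 and Obox8 rose, with the same directions under both other scalings, except that the fall of Obox5 did not pass with quantile scaling (adjusted p = 0.075). Obox1 had 1148, 2553, 2026, 1580.0 and 2057 CPM in replicates 1 to 5 at 48 h, against 6926, 8295, 5398 and 6718 CPM in replicates 1 to 4 at 42 h (log2 change -1.90 ± 0.22 (SE), adjusted p = 7.1e-09). Replicate 1 was the lowest at 48 h. Obox6 had 342, 212, 207, 284 and 372 CPM in replicates 1 to 5 at 48 h, against 27.4, 25.6, 30.2 and 28.9 CPM in replicates 1 to 4 at 42 h (log2 change 3.25 ± 0.18 (SE), adjusted p = 1.4e-16), with all 42 h libraries close to one another. Obox5 stayed very abundant at 48 h (8053 ± 1805 CPM at 48 h against 11925 ± 1738 CPM at 42 h). Of 21 Obox pseudogenes tested, 7 rose and 12 fell (4 and 13 with median-ratio, 5 and 13 with quantile scaling), and since many Obox copies share sequence, single levels are uncertain.

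Genes of the ribosome rose in nearly every case. Of cytosolic ribosomal protein genes, 74 of 78 tested rose, 0 fell and 4 did not pass. Under median-ratio scaling 60 rose and 2 fell, and under quantile scaling 54 and 1. Their median log2 change was 1.65. Rps26 had 34.3, 20.6, 21.3, 35.8 and 47.2 CPM in replicates 1 to 5 at 48 h, against 2.37, 3.45, 2.25 and 1.84 CPM in replicates 1 to 4 at 42 h (log2 change 3.19 ± 0.22 (SE), adjusted p = 2.4e-14), and Rpl7 averaged 18.7 ± 7.20 CPM at 48 h against 1.56 ± 0.5 CPM at 42 h. Their levels were still low, and the 78 genes summed to 1665 to 2643 CPM at 48 h and 548 to 722 CPM at 42 h. Processed pseudogenes of these genes can share their reads. Of ribosome biogenesis genes, 37 of 40 tested rose, 0 fell and 3 did not pass. Under median-ratio scaling 29 rose and 3 fell, and under quantile scaling 26 and 1. Their median was 1.69. Nop2, a nucleolar RNA methyltransferase, had 41.5, 15.1, 17.0, 17.9 and 18.0 CPM in replicates 1 to 5 at 48 h, against 0.786, 0.939, 2.31 and 1.68 CPM in replicates 1 to 4 at 42 h (log2 change 3.18 ± 0.21 (SE), adjusted p = 1.3e-14). Replicate 1 lay far above the other 48 h libraries, which still stood above every 42 h library. Nop16, another nucleolar protein, averaged 63.5 ± 28.2 CPM at 48 h against 3.70 ± 1.16 CPM at 42 h (log2 change 3.69).

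Transcription and translation factors rose in most members, with named exceptions. For RNA polymerase II and its factors, 30 of 38 tested rose, 4 fell and 4 did not pass. Under median-ratio scaling 17 rose and 8 fell, and under quantile scaling 19 and 7. The larger changes up were Gtf2f1, a TFIIF subunit (30.2 ± 9.71 CPM at 48 h against 3.80 ± 1.59 CPM at 42 h), and Polr2k, a small polymerase subunit (8.79 ± 3.46 CPM at 48 h against 1.18 ± 0.556 CPM at 42 h). Those that fell were Polr2g (98.6 ± 17.1 CPM at 48 h against 201 ± 68.3 CPM at 42 h), Gtf2b (193 ± 18.4 CPM at 48 h against 383 ± 126 CPM at 42 h), Supt16 and Polr2c. For translation factors, 32 of 39 tested rose, 3 fell and 4 did not pass. Under median-ratio scaling 15 rose and 9 fell, and under quantile scaling 18 and 4. Eif5, which helps ribosomes recognise the start codon, averaged 382 ± 74.0 CPM at 48 h against 79.3 ± 14.7 CPM at 42 h (log2 change 2.25 ± 0.16 (SE), adjusted p = 3.2e-14), while Eif4a1, the cap-complex helicase, averaged 142 ± 19.8 CPM at 48 h against 356 ± 36.9 CPM at 42 h (log2 change -1.32 ± 0.18 (SE), adjusted p = 8.0e-08). Eif2b1 and Eif4e also fell, with Eif2b1 at 344 ± 39.4 CPM at 48 h against 431 ± 41.1 CPM at 42 h, whose call was lost with quantile scaling and without 48 h replicate 5 or 42 h replicate 1 or 2 (adjusted p 0.058 to 0.086). Without 42 h replicate 1 or 2, 1 translation factor fell.

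**Figure D2:**
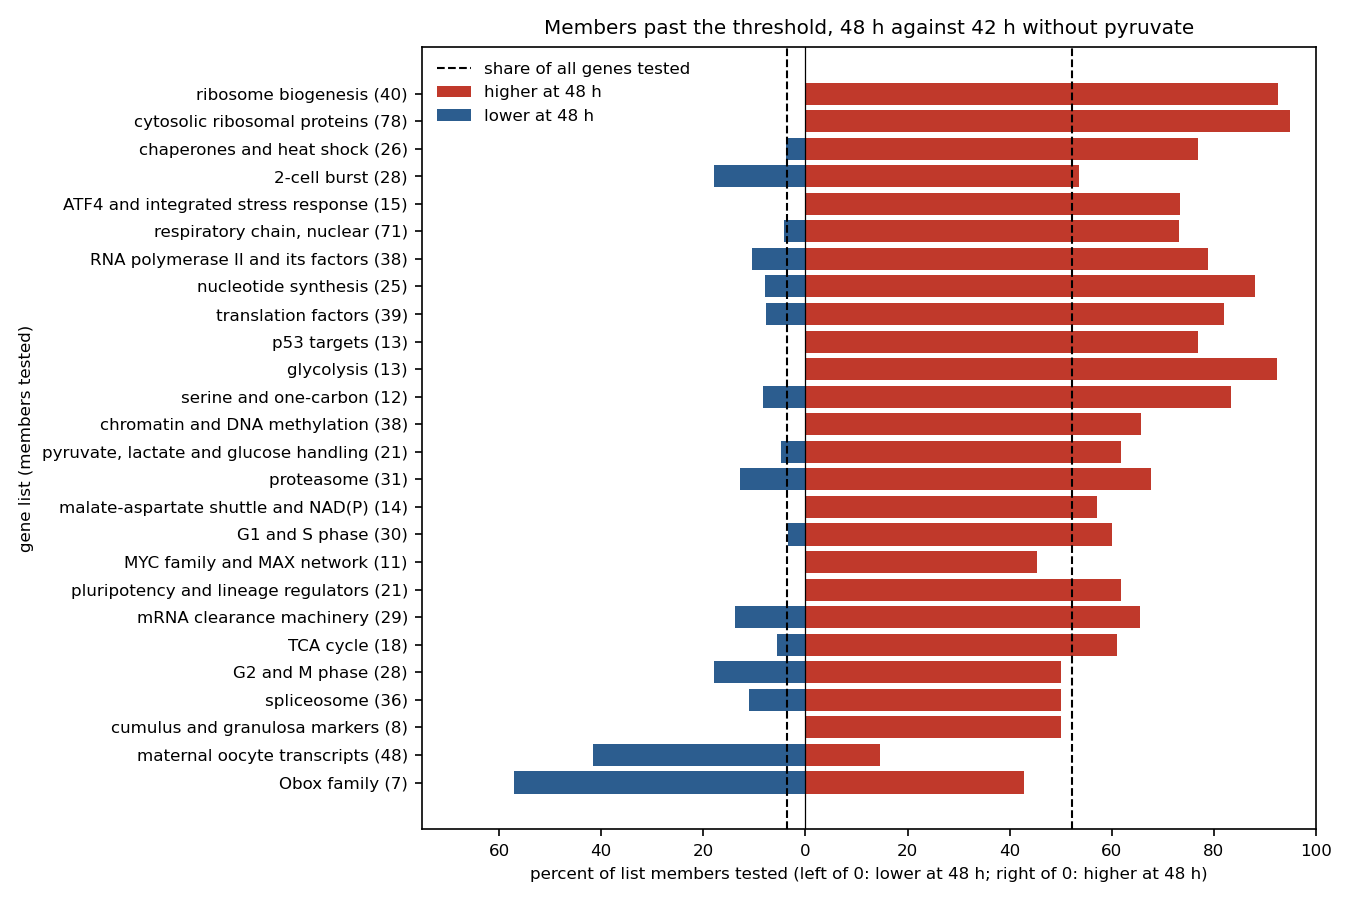
Percent of the tested members of 26 gene lists that were higher (red, right of 0) or lower (blue, left of 0) at 48 h than at 42 h without pyruvate, with lists ordered by median log2 change. Dashed lines mark the shares over all genes tested, 52.3% higher and 3.54% lower, and all shares are those of the deposited scale. The ribosome lists and glycolysis reach over 90% higher, and maternal transcripts and the Obox family have the largest shares lower.

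Genes that handle pyruvate, lactate and glucose rose or fell, in the deposited scale, in shares near those of all genes. Of the list, 13 of 21 tested rose, 1 fell and 7 did not pass. Under median-ratio scaling 6 rose and 3 fell, and under quantile scaling 6 and 3. Slc16a1, the monocarboxylate transporter MCT1 that carries pyruvate and lactate, had 72.9, 53.3, 62.4, 62.0 and 49.4 CPM in replicates 1 to 5 at 48 h, against 12.1, 9.51, 16.5 and 13.8 CPM in replicates 1 to 4 at 42 h (log2 change 2.14 ± 0.20 (SE), adjusted p = 4.8e-11). Every 48 h library was above every 42 h library. The mitochondrial pyruvate carrier has 2 subunits, of which Mpc2 averaged 55.1 ± 12.4 CPM at 48 h against 8.50 ± 1.00 CPM at 42 h (log2 change 2.54 ± 0.16 (SE), adjusted p = 5.9e-15) and Mpc1 282 ± 51.1 CPM at 48 h against 182 ± 41.9 CPM at 42 h. Mpc1 rose in the deposited scale (log2 change 0.64) and with quantile scaling (0.40), and had a log2 change of -0.19 that did not pass with median-ratio scaling.

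The lactate dehydrogenase subunits changed in opposite ways. Ldhb, the heart-type subunit stored in the egg, had 1203, 1847, 1899.9, 1734 and 1862 CPM in replicates 1 to 5 at 48 h, against 4183, 4436, 3602 and 3675 CPM in replicates 1 to 4 at 42 h (log2 change -1.23 ± 0.18 (SE), adjusted p = 7.1e-07). Ldha, the muscle-type subunit, had 71.7, 42.7, 47.6, 46.7 and 50.1 CPM in replicates 1 to 5 at 48 h, against 12.2, 10.9, 10.1 and 15.0 CPM in replicates 1 to 4 at 42 h (log2 change 2.00 ± 0.26 (SE), adjusted p = 4.7e-08). Replicate 1 was the lowest at 48 h for Ldhb and the highest for Ldha, and in neither gene did the groups overlap. Both directions held with the other scalings.

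In the pyruvate dehydrogenase complex, which feeds pyruvate into the TCA cycle, Pdhb rose (125 ± 28.8 CPM at 48 h against 40.6 ± 4.90 CPM at 42 h, log2 change 1.58 ± 0.16 (SE), adjusted p = 3.9e-10) and so did Pdha1 (27.4 ± 4.51 CPM at 48 h against 12.1 ± 2.85 CPM at 42 h, log2 change 1.13). Dlat had 50.2 ± 9.28 CPM at 48 h against 50.7 ± 5.88 CPM at 42 h and Pdhx 193 ± 18.5 CPM at 48 h against 233 ± 24.1 CPM at 42 h, and neither passed. Both passed as lower with the other scalings, Dlat with log2 changes of -0.85 with median-ratio and -0.71 with quantile scaling and Pdhx with -1.10 with median-ratio and -0.44 with quantile scaling. Of the kinases that switch the complex off, Pdk1 (26.0 ± 5.35 CPM at 48 h against 9.54 ± 2.06 CPM at 42 h) and Pdk3 (122 ± 18.4 CPM at 48 h against 61.5 ± 13.6 CPM at 42 h) rose, Pdk2 had 0.884 ± 0.322 CPM at 48 h against 0.539 ± 0.547 CPM at 42 h and did not pass, and Pdk4 was too low to be tested. Of the phosphatases that switch it on, Pdp2 had 77.1, 41.3, 51.8, 56.6 and 51.7 CPM in replicates 1 to 5 at 48 h, against 3.49, 2.88, 10.1 and 7.99 CPM in replicates 1 to 4 at 42 h (log2 change 3.11 ± 0.26 (SE), adjusted p = 3.0e-12), and Pdp1 had 50.4 ± 12.3 CPM at 48 h against 41.9 ± 7.46 CPM at 42 h and did not pass. Pcx, which turns pyruvate into oxaloacetate, rose (5.32 ± 1.35 CPM at 48 h against 2.02 ± 0.374 CPM at 42 h). Pdha1, Pdk3 and Pcx passed with neither other scaling, and Pdk1 did not pass with quantile scaling (adjusted p 0.073 to 0.66 for the 4 genes there).

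Most calls of glucose genes depended on the scaling. The glucose transporter Slc2a3 (13.9 ± 5.05 CPM at 48 h against 4.96 ± 1.02 CPM at 42 h) and hexokinase Hk2 (6.43 ± 0.902 CPM at 48 h against 3.43 ± 0.683 CPM at 42 h) rose, as did the lactate and pyruvate transporter Slc16a7 (3.21 ± 0.729 CPM at 48 h against 1.87 ± 0.886 CPM at 42 h). None of these 3 passed with either other scaling. Hk2 and Slc16a7 turned to -0.21 and -0.23 with quantile scaling, and Slc16a7 lost its call without 42 h replicate 3 (adjusted p = 0.16). Slc2a1 had 35.1 ± 6.96 CPM at 48 h against 24.1 ± 7.59 CPM at 42 h, Hk1 0.336 ± 0.151 CPM at 48 h against 0.146 ± 0.155 CPM at 42 h and Slc16a3 0.311 ± 0.167 CPM at 48 h against 0.088 ± 0.0293 CPM at 42 h, and these 3 did not pass. A fit of only the groups compared called Slc2a1 higher (adjusted p = 0.029, and 0.010 with a replicate block). In glycolysis, 12 of 13 tested rose, 0 fell and 1 did not pass. Under median-ratio scaling 3 rose and 0 fell, and under quantile scaling 1 and 0. Pgam1, phosphoglycerate mutase, averaged 35.1 ± 3.23 CPM at 48 h against 10.6 ± 1.87 CPM at 42 h and Eno1, enolase, 9.40 ± 2.16 CPM at 48 h against 3.37 ± 0.406 CPM at 42 h, though Eno1 did not pass with quantile scaling.

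In mitochondrial metabolism, the TCA cycle and the malate-aspartate shuttle lists changed, in the deposited scale, in shares near those of all genes. For the TCA cycle, 11 of 18 tested rose, 1 fell and 6 did not pass. Under median-ratio scaling 6 rose and 6 fell, and under quantile scaling 6 and 5. Without 42 h replicate 3, 3 of its members fell. Mdh2, mitochondrial malate dehydrogenase, had 87.0 ± 20.52 CPM at 48 h against 15.4 ± 3.71 CPM at 42 h (log2 change 2.42 ± 0.14 (SE), adjusted p = 5.2e-16), and Idh3g, a subunit of isocitrate dehydrogenase, 20.0 ± 7.51 CPM at 48 h against 2.89 ± 0.734 CPM at 42 h, while Sdhc, a membrane subunit of succinate dehydrogenase, fell (20.3 ± 4.25 CPM at 48 h against 31.4 ± 0.703 CPM at 42 h). For the malate-aspartate shuttle and NAD(P) genes, 8 of 14 tested rose, 0 fell and 6 did not pass. Under median-ratio scaling 3 rose and 4 fell, and under quantile scaling 3 and 3. Nampt, of NAD salvage, averaged 34.4 ± 6.30 CPM at 48 h against 6.30 ± 0.419 CPM at 42 h, and Slc25a11, the shuttle's oxoglutarate carrier, 20.3 ± 2.49 CPM at 48 h against 6.90 ± 0.855 CPM at 42 h. For nuclear genes of the respiratory chain, 52 of 71 tested rose, 3 fell and 16 did not pass. Under median-ratio scaling 28 rose and 10 fell, and under quantile scaling 24 and 12. Ndufb10 of complex I (15.9 ± 5.56 CPM at 48 h against 1.86 ± 0.298 CPM at 42 h) and Atp5j of the ATP synthase (22.2 ± 6.67 CPM at 48 h against 3.35 ± 0.966 CPM at 42 h) led the rises, and Ndufa8 (9.26 ± 2.06 CPM at 48 h against 19.0 ± 5.84 CPM at 42 h), Cox5a (135 ± 18.4 CPM at 48 h against 216 ± 51.5 CPM at 42 h) and Ndufab1 fell.

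Nucleotide synthesis genes rose in all but a few cases. In the list, 22 of 25 tested rose, 2 fell and 1 did not pass. Under median-ratio scaling 12 rose and 3 fell, and under quantile scaling 10 and 2. Ppat, the first enzyme of purine synthesis, had 177, 79.4, 71.5, 118 and 120.0 CPM in replicates 1 to 5 at 48 h, against 6.06, 5.25, 7.54 and 9.02 CPM in replicates 1 to 4 at 42 h (log2 change 3.79 ± 0.22 (SE), adjusted p = 4.2e-16). Replicate 1 was the highest at 48 h, and the groups lay far apart. Nme2, a nucleoside diphosphate kinase, averaged 39.9 ± 13.3 CPM at 48 h against 1.82 ± 0.289 CPM at 42 h (log2 change 3.79 ± 0.21 (SE), adjusted p = 1.4e-16), and Prps1, which makes the ribose donor, averaged 959 against 100.2 CPM at 48 and 42 h. Atic (4.21 ± 0.391 CPM at 48 h against 7.27 ± 0.488 CPM at 42 h) and Adss (219 ± 49.3 CPM at 48 h against 289.7 ± 46.2 CPM at 42 h), later enzymes of purine synthesis, fell. Adss lost its call without 48 h replicate 5 or 42 h replicate 3 or 4 (adjusted p 0.056 to 0.068), which left 1 member of the list that fell.

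Among serine and one-carbon genes, 10 of 12 tested rose, 1 fell and 1 did not pass. Under median-ratio scaling 3 rose and 2 fell, and under quantile scaling 5 and 2. Psat1, of serine synthesis, averaged 66.5 ± 29.9 CPM at 48 h against 8.25 ± 2.20 CPM at 42 h (log2 change 2.79 ± 0.23 (SE), adjusted p = 2.9e-12) and Shmt1, which passes one-carbon units to folate, 61.6 ± 14.8 CPM at 48 h against 14.4 ± 2.09 CPM at 42 h, while Mat2b, a regulator of S-adenosylmethionine synthesis, fell (1404 ± 243 CPM at 48 h against 3224 ± 118 CPM at 42 h, log2 change -1.22 ± 0.12 (SE), adjusted p = 1.5e-10). Of the ATF4 and integrated stress response list, 11 of 15 tested rose, 0 fell and 4 did not pass. Under median-ratio scaling 7 rose and 0 fell, and under quantile scaling 6 and 1. Trib3, a pseudokinase induced by ATF4, had 25.0, 13.2, 16.2, 13.3 and 12.8 CPM in replicates 1 to 5 at 48 h, against 1.18, 1.06, 2.56 and 2.65 CPM in replicates 1 to 4 at 42 h (log2 change 2.59 ± 0.21 (SE), adjusted p = 2.2e-12), with replicate 1 well above the other 48 h libraries. Ppp1r15a, which resets translation after stress, averaged 56.7 ± 15.9 CPM at 48 h against 12.1 ± 7.05 CPM at 42 h, and Atf4 itself 93.4 against 37.2 CPM. Of p53 targets, 10 of 13 tested rose, 0 fell and 3 did not pass. Under median-ratio scaling 6 rose and 0 fell, and under quantile scaling 6 and 2. Those that rose included Pmaip1, which encodes the apoptosis factor NOXA (18.9 ± 4.56 CPM at 48 h against 3.30 ± 0.826 CPM at 42 h), and Sesn1 (9.58 ± 3.86 CPM at 48 h against 1.98 ± 0.166 CPM at 42 h).

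Cell cycle genes of G1 and S phase changed, in the deposited scale, in shares near those of all genes. Among them, 18 of 30 tested rose, 1 fell and 11 did not pass. Under median-ratio scaling 9 rose and 10 fell, and under quantile scaling 8 and 7. Ccne1, cyclin E1, averaged 187 ± 52.3 CPM at 48 h against 19.4 ± 10.5 CPM at 42 h (log2 change 3.30 ± 0.20 (SE), adjusted p = 2.2e-15) and Rpa2, of the single-strand DNA binding complex, 51.6 ± 14.4 CPM at 48 h against 7.13 ± 1.17 CPM at 42 h. Rfc3, of the clamp loader, fell (27.1 ± 5.29 CPM at 48 h against 41.2 ± 10.5 CPM at 42 h) and lost its call without 48 h replicate 1 or 2 or 42 h replicate 1 or 2 (adjusted p 0.056 to 0.12), when 0 of the list fell, while 2 fell without 42 h replicate 3. In G2 and M phase, 14 of 28 tested rose, 5 fell and 9 did not pass. Under median-ratio scaling 8 rose and 11 fell, and under quantile scaling 9 and 7. Without 48 h replicate 1, 3 fell. Ccnb1, cyclin B1, had 1762, 2625, 2661, 2177 and 2090.0 CPM in replicates 1 to 5 at 48 h, against 4398, 4423, 5070.5 and 4915 CPM in replicates 1 to 4 at 42 h (log2 change -1.07 ± 0.12 (SE), adjusted p = 4.4e-09). Its partner kinase Cdk1 had 245, 154, 135, 214 and 252 CPM in replicates 1 to 5 at 48 h, against 24.6, 25.8, 22.8 and 29.3 CPM in replicates 1 to 4 at 42 h (log2 change 2.88 ± 0.17 (SE), adjusted p = 1.0e-15). In both genes the groups did not overlap. Cdc25c, a phosphatase that activates CDK1, averaged 40.01 ± 10.8 CPM at 48 h against 4.02 ± 0.771 CPM at 42 h, and Birc5, survivin, fell (559.8 ± 48.9 CPM at 48 h against 1009 ± 104 CPM at 42 h).

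The MYC family itself was low at both ages. Myc had 1.60, 0.537, 1.04, 1.48 and 1.495 CPM in replicates 1 to 5 at 48 h, against 0.884, 0.763, 1.47 and 0.662 CPM in replicates 1 to 4 at 42 h and did not pass (log2 change 0.19 ± 0.26 (SE), adjusted p = 0.54), and Mycn (1.37 ± 0.599 CPM at 48 h against 1.09 ± 0.623 CPM at 42 h) and Mycl (1.23 ± 0.334 CPM at 48 h against 0.597 ± 0.336 CPM at 42 h) did not pass either. Of the MYC and MAX list, 5 of 11 tested rose, 0 fell and 6 did not pass. Under median-ratio scaling 2 rose and 0 fell, and under quantile scaling 1 and 0. Those that rose were Max, the dimer partner (58.2 ± 9.85 CPM at 48 h against 31.0 ± 5.50 CPM at 42 h), Mga (45.8 ± 9.28 CPM at 48 h against 14.9 ± 2.43 CPM at 42 h), Mxd4 (15.5 ± 2.34 CPM at 48 h against 6.31 ± 1.01 CPM at 42 h), Mxi1 (2.26 ± 0.645 CPM at 48 h against 0.668 ± 0.336 CPM at 42 h) and Mxd3 (0.853 ± 0.949 CPM at 48 h against 0.0419 ± 0.0839 CPM at 42 h), the last of which lost its call without 48 h replicate 1 (adjusted p = 0.20) and without 6 other libraries taken one at a time. Max, Mxd4, Mxi1 and Mxd3 did not pass with quantile scaling (adjusted p 0.22 to 0.60). Mxd1 had 42.3 ± 10.6 CPM at 48 h against 34.4 ± 20.3 CPM at 42 h, Mnt 0.82 ± 0.147 CPM at 48 h against 0.365 ± 0.271 CPM at 42 h and Mlx 9.30 ± 1.09 CPM at 48 h against 5.57 ± 1.34 CPM at 42 h, and these did not pass, although Mxd1 did without 42 h replicate 3 (adjusted p = 0.0068). A fit of only the groups compared called Mlx and Mycl higher (adjusted p 0.0041 and 0.019). With a replicate block added, it called Mlx, Mycl and Mxd1 higher (0.0093, 0.018 and 0.044). Mnt passed as higher with a pseudocount of 0.1 (0.022).

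Among regulators of chromatin and of later lineages, 65.8% and 61.9% rose in the deposited scale, against 52.3% of all genes. None fell, but with 3.54% of all genes lower, few falls would be expected in lists of 38 and 21. For chromatin and DNA methylation genes, 25 of 38 tested rose, 0 fell and 13 did not pass. Under median-ratio scaling 13 rose and 12 fell, and under quantile scaling 11 and 9. The rises were led by the histone demethylases Kdm4c, which acts on H3K9 (13.1 ± 2.77 CPM at 48 h against 0.851 ± 0.41 CPM at 42 h), and Kdm5b, which acts on H3K4 (76.4 ± 15.0 CPM at 48 h against 12.1 ± 0.13 CPM at 42 h). For pluripotency and lineage regulators, 13 of 21 tested rose, 0 fell and 8 did not pass. Under median-ratio scaling 7 rose and 3 fell, and under quantile scaling 6 and 2. One at a time, leaving out 48 h replicate 1 or 3 or 42 h replicate 2 gave 1 lineage regulator that fell, and leaving out 42 h replicate 3 gave 1 chromatin gene that fell. Zfp42, known as Rex1, had 20.6, 10.9, 11.6, 20.6 and 19.2 CPM in replicates 1 to 5 at 48 h, against 0.786, 0.998, 0.587 and 1.48 CPM in replicates 1 to 4 at 42 h (log2 change 3.14 ± 0.23 (SE), adjusted p = 1.0e-13), and Klf5 averaged 12.7 ± 3.70 CPM at 48 h against 1.29 ± 0.7 CPM at 42 h. Nanog (21.1 against 23.4 CPM) and Gata3 (27.1 against 27.3 CPM) did not pass, and Cdx2 and Sox17 were too low to be tested.

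Protein folding, degradation and splicing genes had counts that depended on the scaling. For chaperones, 20 of 26 tested rose, 1 fell and 5 did not pass. Under median-ratio scaling 14 rose and 5 fell, and under quantile scaling 13 and 1. The small heat shock gene Hspb1 (25.0 ± 6.88 CPM at 48 h against 3.42 ± 2.14 CPM at 42 h) and Hspa2 (22.2 ± 3.52 CPM at 48 h against 4.08 ± 0.795 CPM at 42 h) rose. Hsp90aa1 fell (245 ± 36.3 CPM at 48 h against 381 ± 99.4 CPM at 42 h). For the proteasome, 21 of 31 tested rose, 4 fell and 6 did not pass. Under median-ratio scaling 8 rose and 11 fell, and under quantile scaling 7 and 9. Its subunits Psmb5 (18.6 ± 9.28 CPM at 48 h against 1.28 ± 0.794 CPM at 42 h) and Psmd7 (56.3 ± 17.9 CPM at 48 h against 9.04 ± 1.31 CPM at 42 h) rose, and Psmb2 (148 ± 31.1 CPM at 48 h against 347 ± 98.0 CPM at 42 h, log2 change -1.21 ± 0.20 (SE), adjusted p = 3.1e-06) and Psma2 (112 ± 19.7 CPM at 48 h against 241 ± 96.2 CPM at 42 h) fell, as did Psmb6 and Psmb3. Without 48 h replicate 1, or without 42 h replicate 1, 2 or 4, 2 proteasome genes fell. For the spliceosome, 18 of 36 tested rose, 4 fell and 14 did not pass. Under median-ratio scaling 13 rose and 13 fell, and under quantile scaling 12 and 15. The subunits Sf3b6 (60.2 ± 25.8 CPM at 48 h against 9.01 ± 2.32 CPM at 42 h) and Snrpb (22.8 ± 7.68 CPM at 48 h against 3.08 ± 0.253 CPM at 42 h) rose. Snrpb2 (218 ± 46.0 CPM at 48 h against 423 ± 147 CPM at 42 h) and Snrpd3 (71.4 ± 14.4 CPM at 48 h against 125 ± 25.3 CPM at 42 h) fell. With 42 h replicate 3 left out, 7 spliceosome genes fell.

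The change without pyruvate was then set against that of standard embryos over the same hours, to ask where it differed. The test of the difference called 6598 genes (31.8% of 20737), 4469 with a more positive change without pyruvate (21.6%) and 2129 with a more negative one (10.3%). The share more positive was 67.7% in the deposited scale, 60.8% with median-ratio scaling, where 29.6% of genes were called, and 50.9% with quantile scaling (3338 and 3216). The 5 most positive differences belonged to genes that rose without pyruvate and had a negative change in standard embryos. Of these rises, that of Zfp353-ps passed with neither other scaling nor a pseudocount of 0.1 (adjusted p 0.11 to 0.45), and that of Tdpoz3 not with quantile scaling. AA414992 had 419, 340.0, 271, 344 and 448 CPM in replicates 1 to 5 at 48 h, against 27.0, 26.8, 27.3 and 42.1 CPM in replicates 1 to 4 at 42 h, beside 511 ± 153 CPM at 48 h and 752 ± 138 CPM at 42 h in standard medium (difference 4.11 ± 0.32 (SE), adjusted p = 8.2e-11). Ddit4l, a stress-responsive inhibitor of mTORC1, had 131, 117, 109, 125 and 166 CPM in replicates 1 to 5 at 48 h, against 18.0, 25.1, 14.1 and 21.8 CPM in replicates 1 to 4 at 42 h, beside 47.7 ± 7.18 CPM at 48 h and 103 ± 20.9 CPM at 42 h in standard medium (difference 3.75 ± 0.32 (SE), adjusted p = 2.5e-10). No pyruvate-free 42 h library reached the 48 h range in either gene. The others were Zfp353-ps (difference 4.04 ± 0.56 (SE), adjusted p = 1.4e-06), Tdpoz3 (difference 3.67 ± 0.51 (SE), adjusted p = 1.6e-06) and Olfr376 (difference 3.65 ± 0.53 (SE), adjusted p = 2.5e-06), the last an olfactory receptor gene with 29.3 ± 5.70 CPM at 48 h against 4.53 ± 1.76 CPM at 42 h without pyruvate.

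The 5 most negative differences were of genes whose change was larger in standard embryos. Brf2, of RNA polymerase III initiation, had 8.11 ± 1.89 CPM at 48 h against 7.67 ± 2.04 CPM at 42 h without pyruvate, beside 58.7 ± 25.9 CPM at 48 h and 4.45 ± 0.736 CPM at 42 h in standard medium (difference -3.27 ± 0.34 (SE), adjusted p = 1.0e-08). Without pyruvate Brf2 did not pass in the deposited scale, but it passed as lower with both other scalings (log2 changes -0.67 with median-ratio and -0.94 with quantile scaling). Smyd5 had 3.77 ± 2.10 CPM at 48 h against 1.79 ± 1.14 CPM at 42 h without pyruvate, beside 75.8 ± 16.5 CPM at 48 h and 4.45 ± 0.765 CPM at 42 h in standard medium (difference -3.05 ± 0.40 (SE), adjusted p = 5.6e-07). Zfp977 (difference -3.03 ± 0.42 (SE), adjusted p = 1.2e-06), Cybc1 (difference -2.97 ± 0.34 (SE), adjusted p = 5.6e-08) and Spesp1 (difference -2.97 ± 0.43 (SE), adjusted p = 2.8e-06) completed the set. All 10 differences passed in every alternative and without any 1 library of the groups compared.

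By list, counts are read against the background of 21.6% more positive and 10.3% more negative. The change of the 2-cell burst was more positive without pyruvate in 19 of 28 genes and more negative in 1, with a median difference of 1.59. The median change of the list in standard embryos over these hours was -0.55. Maternal transcripts had 19 of 48 more positive and 3 more negative, the Obox family 6 of 7 and 0, and pyruvate, lactate and glucose genes 12 of 21 and 1. Slc16a1 (difference 1.57 ± 0.30 (SE), adjusted p = 0.00016) and Ldha (difference 2.23 ± 0.39 (SE), adjusted p = 4.6e-05) were among the last. The proteasome had 1 of 31 more positive and 20 more negative (median -0.99), with Psmb2 at 179 ± 33.04 CPM at 48 h and 107 ± 36.1 CPM at 42 h in standard medium (difference -1.97 ± 0.30 (SE), adjusted p = 5.0e-06). Translation factors had 3 and 17 of 39, RNA polymerase II and its factors 4 and 14 of 38, and the spliceosome 3 and 12 of 36. In the deposited scale nucleotide synthesis had 6 and 11 of 25, ribosome biogenesis 6 and 14 of 40, and nuclear respiratory chain genes 8 and 19 of 71. With median-ratio and quantile scaling the 2-cell burst had 19 and 17 more positive, maternal transcripts 18 and 21, and pyruvate, lactate and glucose genes 9 of 20 and 8 of 21, against 18% and 16.1% of all genes. More negative were 23 and 23 proteasome genes, 21 and 22 translation factors, 18 and 19 genes of RNA polymerase II and 15 and 19 of the spliceosome, against 11.6% and 15.5% of all genes.

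**Figure D3:**
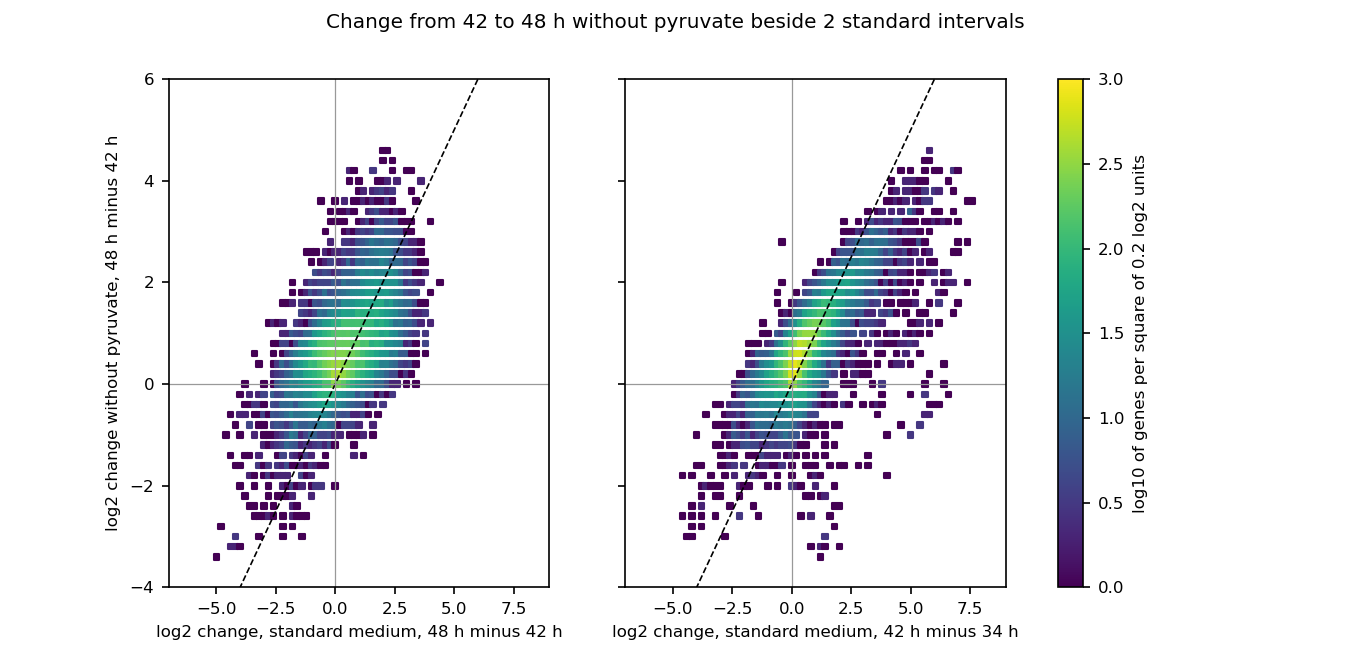
Log2 change from 42 to 48 h without pyruvate (vertical) against the log2 change in standard medium (horizontal) from 42 to 48 h (left) and from 34 to 42 h (right), for 20737 genes counted in squares of 0.2 log2 units and coloured by log10 of the number of genes. The dashed line marks equal change; in the right panel a group of genes with standard changes above 4 lies near or below 0 without pyruvate.

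Set beside the earlier standard interval, from 34 to 42 h, the pyruvate-free change differed in fewer genes. No library is shared between the intervals, which last 6 h and 8 h. The test called 2223 genes (10.7%), 1053 more positive without pyruvate (5.08%) and 1170 more negative (5.64%). The share more positive was 47.4% in the deposited scale, 31.2% with median-ratio scaling (943 and 2084) and 38.2% with quantile scaling (914 and 1481). The more positive genes were 4.66% of the 20221 tested with median-ratio scaling and 4.41% of those tested with quantile scaling. The more negative ones were 10.3% and 7.14%. Across the 20737 genes, Pearson's r with the standard change was 0.759 for 34 to 42 h (Spearman's rho 0.734) and 0.576 for 42 to 48 h (rho 0.529). These describe genes, which are not independent and share the scale of their library, and carry no test. Of the 10848 genes that rose without pyruvate, 93.8% had a change of the same sign in standard embryos from 34 to 42 h and 78.9% from 42 to 48 h. Of the 734 that fell, 72.2% had the same sign from 34 to 42 h and 89.5% from 42 to 48 h. The shares of all genes with each sign are not given, so these percentages do not show which interval was closer.

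The genes that did differ from the earlier interval included 4 Zscan4 copies among the 5 most negative. Zscan4d rose in standard embryos over those hours (637 ± 54.6 CPM at 42 h and 19.0 ± 3.48 CPM at 34 h in standard medium) and fell without pyruvate from 42 to 48 h (difference -6.03 ± 0.34 (SE), adjusted p = 2.6e-15). Zscan4a (difference -6.39 ± 0.31 (SE), adjusted p = 7.9e-17), Zscan4c (difference -6.26 ± 0.43 (SE), adjusted p = 3.0e-13), Zscan4-ps3 (difference -6.21 ± 0.56 (SE), adjusted p = 2.1e-10) and BB287469 (difference -6.44 ± 0.50 (SE), adjusted p = 5.1e-12) were the other most negative differences. All 6 Zscan4 genes were more negative, and of the 2-cell burst list 23 of 28 were more negative and 1 more positive (median -2.54), against the background of 5.64% and 5.08%. At the other end, Rgs2, a regulator of G protein signalling stored in the egg, had 397 ± 116 CPM at 48 h against 1394 ± 329.9 CPM at 42 h without pyruvate, beside 157 ± 122 CPM at 42 h and 3424 ± 662 CPM at 34 h in standard medium (difference 2.85 ± 0.52 (SE), adjusted p = 0.00015). Mtfr2, of mitochondrial fission, had 49.9 ± 19.3 CPM at 48 h against 94.1 ± 10.7 CPM at 42 h without pyruvate, beside 43.0 ± 15.0 CPM at 42 h and 689 ± 43.1 CPM at 34 h in standard medium (difference 3.06 ± 0.35 (SE), adjusted p = 2.9e-08). Nup93, of the nuclear pore (difference 2.74 ± 0.33 (SE), adjusted p = 1.1e-07), Psma7, of the proteasome (difference 2.61 ± 0.28 (SE), adjusted p = 7.0e-09), and Selenok, a selenoprotein (difference 2.53 ± 0.33 (SE), adjusted p = 6.0e-07), were also more positive. Nup93 and Psma7 had not passed within the pyruvate-free embryos, with 30.2 ± 13.6 CPM at 48 h against 41.9 ± 14.4 CPM at 42 h and 58.6 ± 7.76 CPM at 48 h against 75.4 ± 18.4 CPM at 42 h. Both passed as lower with the other scalings, Nup93 with log2 changes of -1.31 with median-ratio and -1.25 with quantile scaling and Psma7 with -1.16 with median-ratio and -0.89 with quantile scaling. Maternal transcripts had 22 of 48 more positive and 5 more negative, the chromosome 9 Fbxw cluster 10 of 15 and 0, the proteasome 11 of 31 and 1, and cytosolic ribosomal proteins 0 of 78 and 17. With median-ratio and quantile scaling the 2-cell burst had 24 more negative under both, the Zscan4 genes 6, and cytosolic ribosomal proteins 29 and 18. The shares of all genes more negative were 10.3% and 7.14%. More positive were 22 and 18 maternal transcripts, 9 and 5 Fbxw genes and 9 and 9 proteasome genes, against 4.66% and 4.41% of all genes. All 10 named differences passed in every alternative and without any 1 library of the groups compared.

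Levels at single ages, given side by side with no test, were close between the 48 h pyruvate-free embryos and the standard 42 h embryos for several of the genes above. Cdk2ap1 averaged 123 CPM without pyruvate at 48 h and 132 CPM in standard embryos at 42 h, Nop2 21.9 and 31.1 CPM, and Obox6 283 and 244 CPM. Slc16a1 averaged 60.003 and 68.5 CPM, Ccnb1 2263 and 2268 CPM, and Fbxw28 1001 and 718 CPM. Slbp differed more, with 1215 and 2285 CPM, and so did Zscan4d, AA414992 and Rgs2, whose levels are given above. No rule chose the genes shown here, and no share over all genes is given. After 48 h without pyruvate, Nop2 averaged 45.9 CPM at 52 h and 176 CPM at 55 h (n = 4 each). Zscan4d averaged 280.0 CPM at 52 h and 149 CPM at 55 h without pyruvate, beside 38.5 and 17.8 CPM in standard medium, where the 55 h embryos were at the early 4-cell stage.

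**Figure D4:**
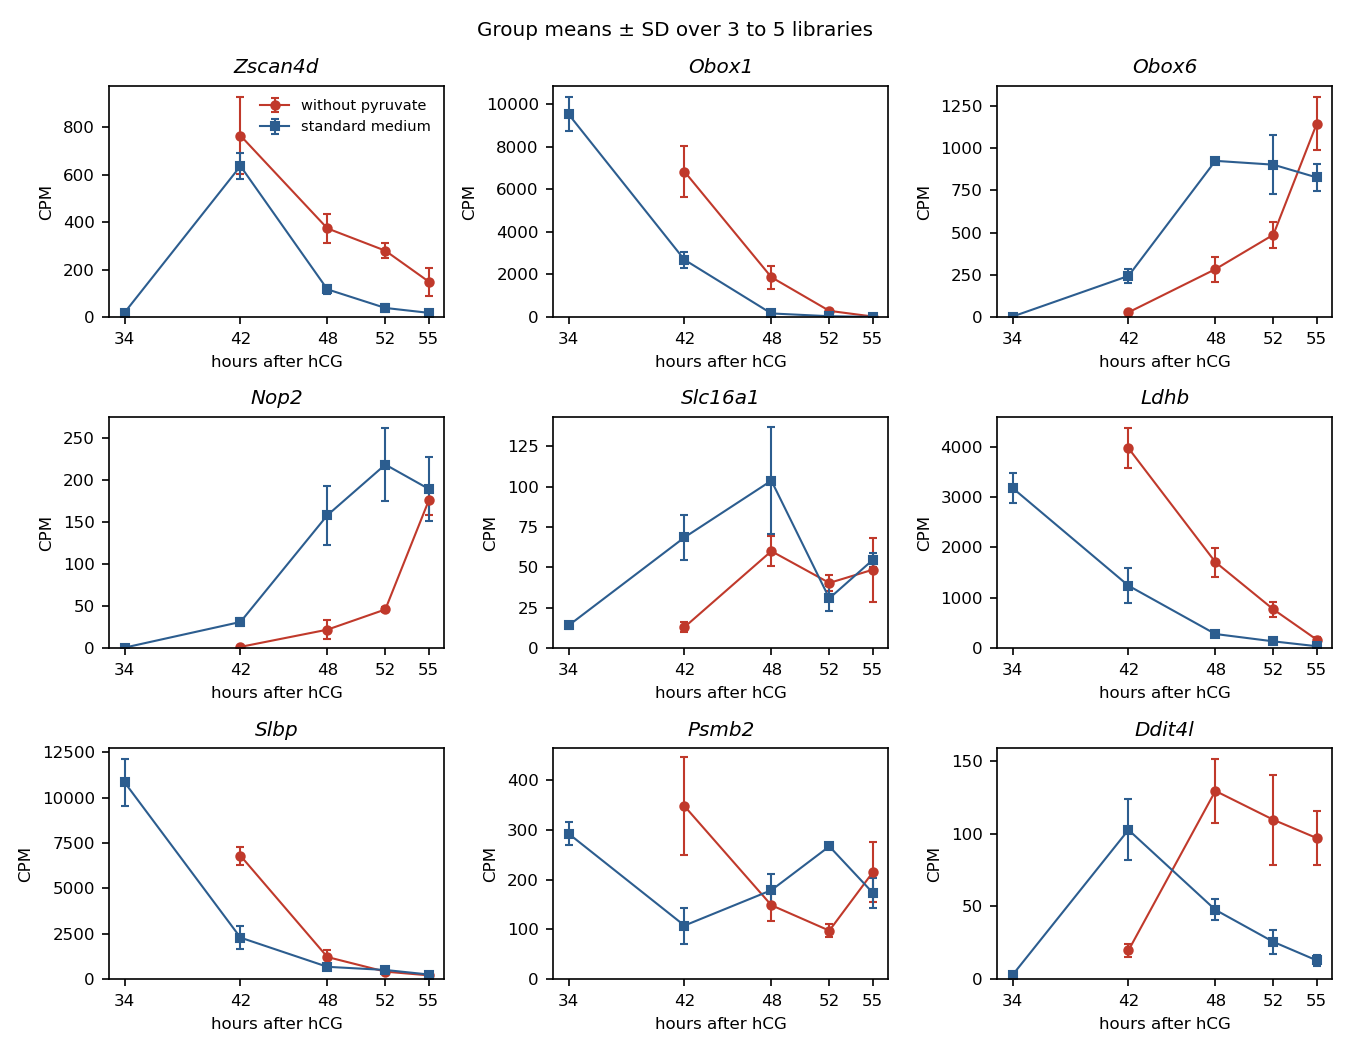
Mean level (CPM, linear scale, ± SD over 3 to 5 libraries) of 9 genes against hours after hCG, without pyruvate (red circles) and in standard medium (blue squares). Zscan4d is at 765 CPM at 42 h without pyruvate and 637 CPM in standard medium, while Nop2 at 42 h is at 1.43 and 31.1 CPM; the standard embryos at 55 h were early 4-cell embryos.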

How the data were processed

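RNA-seq was done by Smart-seq2. The aligner was STAR 2.6.1d and the build mm10, per the submitters' processing notes; the counter and annotation are not given in the sources used here. The deposited table holds CPM values (counts per 1000000) made by the authors, with an offset of 0.0001 on every value, for 85 columns matched to libraries, and 6 further columns were not used. From it, 26 rows named by numbers were dropped (0.0458 to 0.174% of CPM), leaving 37368 genes. The step of 1 read gave the depth, but only 71.8 to 78.7% of values of at most 20 reads lay within 0.1 of a whole read, so no count test was run and precision rests on the spread between libraries. Positions come from GENCODE vM21 (36810 symbols matched, and 335 in RefSeq only).

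Tests used limma 3.58.1 (R 4.3.3) with a mean trend on log2(CPM + 1), a scale that understates changes of low genes. Genes above 1 CPM in at least 3 of the 34 libraries aged 34 to 55 h were kept. These 34 libraries formed 9 groups and shared one estimate of spread, and p-values were Benjamini-Hochberg adjusted over all genes (threshold 0.05). Differences between intervals were contrasts of the same fit. The code was tested on simulated data. Single values used exact permutation tests (scipy 1.17.1, Python 3.11.15).

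The members and lists were chosen with earlier results of these data known. Named genes were the 10 largest rises and falls with at least 20 CPM, up to 2 each way per list with at least 5 CPM, every pyruvate and MYC list member, and 5 each way per difference. Others, such as Wee2, Dppa4, Prps1, Atf4 and Nanog, were picked after their values were seen. Alternatives were a pseudocount of 0.1, no filter, a fit of only the groups compared, a replicate block, median-ratio and quantile scaling, and leaving out each library.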

Additional observations from a re-analysis of the deposited data

Results flagged for a closer look

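In 292 groups of 4 or 5 libraries, over the named genes at 48 and 42 h without pyruvate, the highest or lowest library lay far from its neighbours in 23 cases, 12 at 48 h and 11 at 42 h. Chance alone flags about 1 in 20 groups. At 48 h, replicate 1 stood apart in Slc19a3 (151 CPM, 79.2 to 91.4 in the others), Nop2 (41.5 CPM, 15.1 to 18.0 in the others), Ldha (71.7 CPM, 42.7 to 50.1 in the others), Ldhb (1203 CPM, 1734 to 1899.9 in the others), Trib3 (25.0 CPM, 12.8 to 16.2 in the others), Sesn1 (16.4 CPM, 6.76 to 8.65 in the others), Ccne1 (279 CPM, 154 to 181 in the others), Mxd3 (2.51 CPM, 0.201 to 0.736 in the others) and Amhr2 (10.7 CPM, 4.43 to 6.11 in the others). At 48 h, replicate 3 stood apart in Slbp (1871 CPM, 977 to 1119 in the others), Eif2b1 (411 CPM, 309 to 336 in the others) and Mtfr2 (83.9 CPM, 37.3 to 46.0 in the others). At 42 h, replicate 1 stood apart in Pabpn1l (39.1 CPM, 28.7 to 29.8 in the others) and Eif3c (4.36 CPM, 3.65 to 3.66 in the others). At 42 h, replicate 3 stood apart in Ctsc (10.2 CPM, 1.76 to 1.96 in the others), Cnot3 (57.5 CPM, 13.0 to 19.5 in the others), Sf3b6 (5.58 CPM, 9.69 to 10.5 in the others), Hk1 (0.377 CPM, 0.0509 to 0.0982 in the others), Mxd3 (0.168 CPM, 0 in the others) and Olfr376 (1.92 CPM, 5.04 to 5.65 in the others). At 42 h, replicate 4 stood apart in Slbp (6044 CPM, 6980.2 to 7119 in the others), AA414992 (42.1 CPM, 26.8 to 27.3 in the others) and Zfp977 (2.48 CPM, 2.92 to 2.97 in the others). The reason was not tested.

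The pyruvate-free change from 42 to 48 h differed from the standard change over the same hours in 6598 genes by limma's test of the difference (adjusted p under the 0.05 threshold). The 5 more positive named differences, in log2 units ± SE, were those of AA414992 (4.11 ± 0.32, adjusted p = 8.2e-11), Zfp353-ps (4.04 ± 0.56, adjusted p = 1.4e-06), Ddit4l (3.75 ± 0.32, adjusted p = 2.5e-10), Tdpoz3 (3.67 ± 0.51, adjusted p = 1.6e-06) and Olfr376 (3.65 ± 0.53, adjusted p = 2.5e-06). The 5 more negative named differences, in log2 units ± SE, were those of Brf2 (-3.27 ± 0.34, adjusted p = 1.0e-08), Smyd5 (-3.05 ± 0.40, adjusted p = 5.6e-07), Zfp977 (-3.03 ± 0.42, adjusted p = 1.2e-06), Cybc1 (-2.97 ± 0.34, adjusted p = 5.6e-08) and Spesp1 (-2.97 ± 0.43, adjusted p = 2.8e-06).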

How the results depend on the processing

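Of the values for counts and library composition under the alternatives, 202 stayed within 1.5 times or within the spread of the main value and 15 moved further. With median-ratio scaling 7688 genes were called from 42 to 48 h without pyruvate (4615 higher, 3073 lower), and with quantile scaling 7177 (3631 higher, 3546 lower). For the difference from the standard 42 to 48 h change, the genes more negative numbered 1391 with a pseudocount of 0.1 and 3216 with quantile scaling. For the difference from the standard 34 to 42 h change, a fit of only the groups compared called 3699 genes (2071 more positive), and median-ratio scaling gave 2084 more negative genes. The causes were not tested. Leaving out 1 library at a time gave 10342 to 11255 calls without pyruvate (9706 to 10524 higher, 632 to 790 lower). It gave 5515 to 6540 calls for the difference from the standard 42 to 48 h change (3665 to 4426 more positive, 1750 to 2301 more negative). It gave 1654 to 2569 for the difference from the 34 to 42 h change (694 to 1246 more positive, 908 to 1323 more negative), with the lowest, 694, without standard 34 h replicate 2. The composition differences ranged from 2998 to 3178 for genes above 1 CPM, 2.77 to 3.18 percentage points for the mitochondrial share and -13.2 to -12.0 for the 100 highest genes. Deviations of same-numbered libraries had correlations of -0.27, 0.07, 0.20 and 0.06, within the range of differently numbered ones (-0.36 to 0.44). So few pairs cannot show whether the libraries were paired. A replicate block gave 11215 calls without pyruvate, 6407 and 2359 for the differences from the standard 42 to 48 h and 34 to 42 h changes. The block with only the groups compared, added after seeing the data, called 4181 genes for the last of these (2311 more positive, 1870 more negative). Of the named genes' values, 2665 kept direction and call, 84 lost the call, 34 gained it, and 4 values of genes called in the deposited scale changed sign without passing: Slc16a7 at -0.23, Hk2 at -0.21 and Smyd5 at -0.051 with quantile scaling, and Mpc1 at -0.19 with median-ratio scaling. Among named genes not called there, signs also changed, without passing except for Brf2, which passed as lower with both other scalings. The block ended the calls of Pabpn1l, Eif2b1, Adss, Rfc3, Mxd3 and Spesp1 (adjusted p 0.053 to 0.068). Depth limits the genes near 1 CPM, such as Myc, Mxd3 and Hk1.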
